A study of Caenorhabditis elegans with 48 samples.

Results

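The regions described here are stretches of the Caenorhabditis elegans genome where DPL-1 and LIN-35 were called in L1 larvae and no Rb/E2F factor was called in the germline of young adults. Overlapping peaks (1 bp or more) of all 23 deposited peak lists were merged into 24318 regions. A region was selected on the measured peaks themselves: it had to hold a peak in all 4 L1 lists of DPL-1 and LIN-35 expressed from their own promoters, and none in the 8 young adult lists. Of the 24318 regions, 229 met the rule and are called members. Another 1913 regions held all 4 L1 peaks and at least 1 young adult peak. These germline-bound regions are the comparison used throughout. A member is a region without a called young adult peak, which does not show that the factor is absent there.

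Chromatin immunoprecipitation with an antibody to GFP was followed by sequencing in 11 strains, each in the unc-119(ed3) background with 1 integrated low-copy transgene that carries a GFP:FLAG-tagged factor and an unc-119 rescue fragment. Young adults expressed germline EFL-1 (YL445), germline DPL-1 (YL390) or germline LIN-35 (YL402) from the pie-1 promoter, or LIN-35 from the mex-5 promoter (YL468). L1 larvae expressed somatic EFL-1 (YL424), DPL-1 (YL425) or LIN-35 (YL409) from the factor's own promoter, which acts in many cell types. Other L1 larvae expressed intestinal EFL-1 (YL418), DPL-1 (YL448), LIN-35 (YL398) or HPL-2 (YL416) from the ges-1 promoter. There were 2 replicates per strain and 3 for HPL-2. Each strain is 1 transgenic line, the tagged protein is present beside the untagged one, and the germline lists differ from the others in stage as well as in tissue, so tissue and stage cannot be told apart.

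LIN-35 is the only Rb-like pocket protein of C. elegans. DPL-1 is the DP-like partner with which the E2F protein EFL-1 binds DNA, and the 3 proteins belong to the DRM complex, which represses many genes in somatic cells. HPL-2 is a heterochromatin protein of the HP1 family. At the L1 stage collected here the germline consists of only the primordial germ cells, so chromatin from whole L1 animals is almost wholly somatic.

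Motif sites were taken from the study's germline-specific, soma-specific and intestine-specific sets of binding sites. Of these, 6 lie within binding regions that overlap a member on chromosomes II, III, IV or X. They are shown as examples of the DNA at members, and sites on other chromosomes were not used here. Each is written 5′ to 3′ on the strand given, with the motif site in capitals and the flanking bases in lower case. Member coordinates are those of the deposited lists (WS180).
Somatic E2F motif, dnc-2 and bcl-7, chrIII:5925606-5926077, minus strand: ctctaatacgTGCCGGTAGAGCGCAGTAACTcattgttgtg
Somatic E2F motif, orc-4, chrIII:10645987-10646379, minus strand: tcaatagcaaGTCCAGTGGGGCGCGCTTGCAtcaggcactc
FOXO motif, ints-6 and hst-1, chrIV:8691500-8691916, plus strand: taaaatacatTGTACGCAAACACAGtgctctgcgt
FOXO motif, mett-10 and nuaf-7, chrIII:10114566-10114919, minus strand: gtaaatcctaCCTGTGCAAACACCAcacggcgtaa
Unnamed soma-specific motif, F43C11.6, chrII:2341991-2342432, plus strand: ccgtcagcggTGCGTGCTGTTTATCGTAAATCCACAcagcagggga
First intestine-specific motif, rbg-1 and plp-2, chrX:14982579-14983644, minus strand: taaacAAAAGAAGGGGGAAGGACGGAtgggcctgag

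Both somatic E2F sites at members contain the run GCGC. It is held by 29 of the 42 somatic E2F sites in the study's soma-specific set on the same chromosomes. The study also names a somatic E2F motif in its intestine-specific and broadly bound sets, whose sites are not among the 42. It chose the soma-specific set to lack germline EFL-1 sites. Both FOXO sites contain GCAAACAC, as do 16 of 21. The study found these motifs in binding sites of these same strains, so the letters are a description and not independent evidence. Of the 42 somatic E2F sites, 2 lay in members, 31 in germline-bound regions and 9 in other regions. Of the 21 FOXO sites, 2 lay in members and 15 in germline-bound regions, and of the 65 sites of the first intestine-specific motif 1 lay in a member and 27 in germline-bound regions. For comparison, members make up 10.7% of the 2142 regions with all 4 somatic peaks.

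The 6 members with a printed site were not alike in their peaks. At dnc-2, which encodes the dynamitin subunit of dynactin, and bcl-7, a homolog of a mammalian SWI/SNF subunit, the q-values were 5.70e-16 and 2.19e-07 for somatic DPL-1 replicates 1 and 2 and 9.47e-09 and 1.98e-06 for somatic LIN-35. EFL-1 was called there in both somatic replicates, at 1.05e-04 and 1.17e-17. At orc-4, an origin recognition complex subunit, EFL-1 was called in somatic replicate 2 alone, at 5.15e-07. The member at ints-6, an Integrator subunit, and hst-1, a heparan sulfate sulfotransferase, held peaks in both somatic EFL-1 replicates, at 8.93e-03 and 3.47e-14. Of the 3 HPL-2 libraries, replicate 3 alone had a peak there, at 8.52e-03. At rbg-1, a Rab3 GTPase-activating protein gene, LIN-35 was called in both intestinal replicates, at 1.15e-17 and 5.04e-03. All 6 sites thus had a somatic EFL-1 replicate 2 peak, as did 214 of the 229 members.

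The lists held from 558 to 7556 peaks, with a median of 3394, and they carry no read depth. The study's own read numbers were not used here. Of the merged regions, 58.6% held a peak of 1 library only. The young adult lists differ most in length: germline EFL-1 replicate 3 had 7074 peaks and mex-5 germline LIN-35 replicate 2 had 558. The germline LIN-35 libraries stood apart in having only 2.42% and 2.67% of their peaks on chromosome I, against 8.21% to 13.7% in the other 6 young adult libraries and 10.9% to 19.98% in the 4 somatic DPL-1 and LIN-35 libraries.

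The absence of young adult peaks was graded over the regions. Of the 2142 regions with all 4 somatic peaks, 229 (10.7%) had no young adult peak, 277 had a peak in 1 young adult library, and 141 (6.58%) had one in all 8. In the 277 regions with a single young adult peak, that peak came from germline EFL-1 replicate 3 in 175 (63.2%), from mex-5 germline LIN-35 replicate 1 in 41 and from germline DPL-1 replicate 4 in 35. Without germline EFL-1 replicate 3, the longest of the young adult lists, the rule gave 411 members, and without somatic DPL-1 replicate 2, the shortest of the 4 somatic lists, it gave 387. Without both germline LIN-35 libraries it gave 238.

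At the threshold itself, the members just inside were the tRNA gene region C13B4.t1 (chrII:14474631-14474973), with somatic q-values from 5.71e-03 to 9.93e-03, and camt-1, a calmodulin-binding transcription activator gene, with a weakest somatic q-value of 9.49e-03. Y18D10A.3 and Y18D10A.4 (weakest q 8.67e-03), H05C05.3 (8.02e-03) and mec-8 (8.02e-03) came next among members with a gene. Just outside were egl-4, a cGMP-dependent protein kinase gene, with a germline EFL-1 replicate 3 peak at 9.20e-03, K04B12.2, with a germline LIN-35 replicate 3 peak at 9.60e-03, acs-4 (9.64e-03) and ZK637.14 (9.81e-03), each with its only young adult peak. The fifth, chrIII:4223440-4224233, had a germline DPL-1 replicate 4 peak at 8.89e-03. Another 355 regions had 3 of the 4 somatic peaks and no young adult peak, and 157 of them lacked only somatic DPL-1 replicate 2.

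In the 4 lists that chose them, the members' peaks were mostly weak, although the range was wide. The weakest of the 4 q-values had a median of 0.00115 in members and 2.29e-08 in germline-bound regions. When the 2142 regions were divided into quartiles of that value, 1 member fell in the strongest quartile, 16 in the second, 71 in the third and 141 in the weakest, where members made up 26.3% of the regions. The median peak width of members in these lists was 403 and 387 bp for DPL-1 and 406 and 485 bp for LIN-35, against 488, 431, 456 and 479 bp in germline-bound regions. These values belong to the choice of regions and were not tested.

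EFL-1, the partner of DPL-1, was called at most members in 1 somatic library and at a minority in the other somatic and both intestinal libraries. In somatic EFL-1 replicate 1, 43 members (18.8%) had a peak, where 6.44% of all merged regions did. In somatic EFL-1 replicate 2, which has 4540 peaks against 1588, 214 members (93.4%) had one, where 18% of all regions did. All 43 members of replicate 1 were among the 214 of replicate 2. In intestinal EFL-1, 57 members (24.9%) had a peak in replicate 2 and 27 (11.8%) in replicate 3, beside 7.90% and 5.05% of all regions. Both intestinal replicates had one at 19 members (8.30%), at 52.8% of germline-bound regions and at 4.50% of all regions. No EFL-1 peak in any of the 4 libraries was found at 15 members (6.55%), at 18 germline-bound regions (0.941%) and at 80.8% of all regions. At 149 members (65.1%) EFL-1 was called in a somatic library and in no intestinal one, and this was so at 23.6% of germline-bound regions and 10.8% of all regions. That pattern rests on somatic EFL-1 replicate 2, whose peaks include all those of replicate 1 at members.

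**Figure D1:**
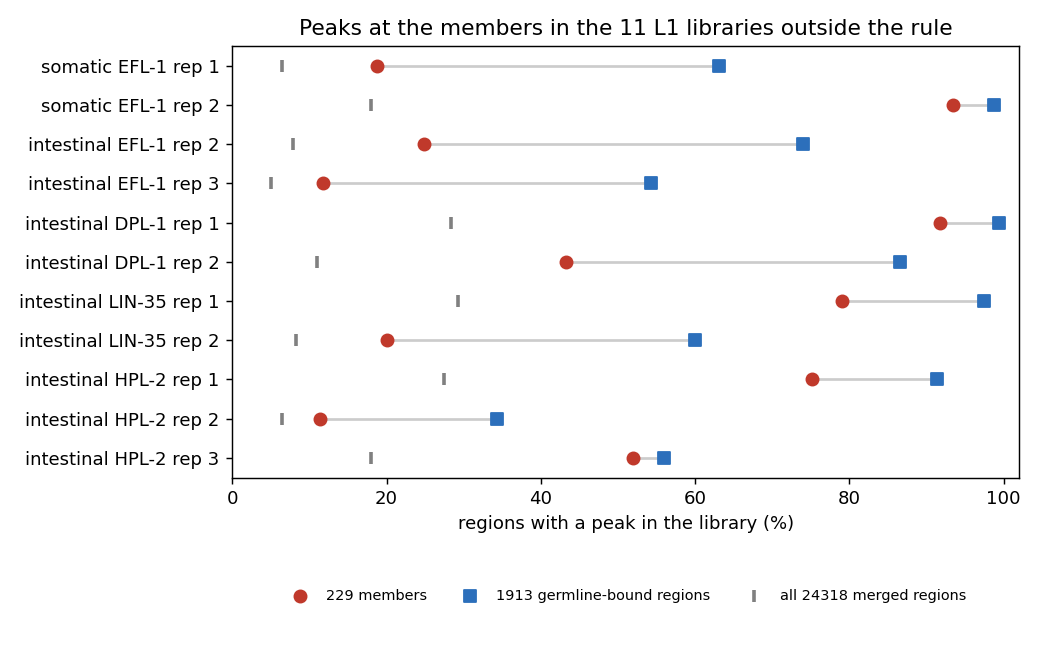
Share of regions with a peak (x axis, %) in each of the 11 L1 libraries that the rule did not use (y axis), for the 229 members (circles), the 1913 germline-bound regions (squares) and all 24318 merged regions (ticks). Members lie left of germline-bound regions and right of all regions in every library, and the replicates of a strain lie far apart.

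DPL-1 and LIN-35 expressed in the intestine were called at many members in replicate 1 and at fewer in replicate 2. Intestinal DPL-1 replicate 1 had a peak at 210 members (91.7%, all regions 28.3%) and replicate 2 at 99 (43.2%, all regions 11%). Both had one at 97 (42.4%, germline-bound regions 86.3%, all regions 10.0%). Intestinal LIN-35 replicate 1 had a peak at 181 members (79.0%, all regions 29.2%) and replicate 2 at 46 (20.1%, all regions 8.19%). Both had one at 45 (19.7%, germline-bound regions 59.3%, all regions 7.94%). The replicate 1 lists hold 7556 and 7283 peaks and the replicate 2 lists 2814 and 2125. The replicates of 1 strain thus differed widely, and the longer list of each strain held all but 1 or 2 of the members of the shorter.

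HPL-2 was called at a large share of members in 2 of its 3 libraries. Replicate 1 had a peak at 172 members (75.1%, all regions 27.4%), replicate 2 at 26 (11.4%, all regions 6.46%) and replicate 3 at 51.97% of members (all regions 18%). At least 2 of the 3 libraries had a peak at 105 members (45.9%), at 60.2% of germline-bound regions and at 11.13% of all regions. All 3 had one at 19 members (8.30%), 27.8% of germline-bound regions and 3.48% of all regions. An HPL-2 peak in at least 2 libraries together with no intestinal EFL-1 peak was found at 73 members (31.9%), at 12.4% of germline-bound regions and at 6.49% of all regions. An intestinal EFL-1 peak in at least 1 library was itself at 28.4% of members, 75.4% of germline-bound regions and 8.44% of all regions. The joint share is thus higher in members although HPL-2 in at least 2 libraries was less frequent there. No HPL-2 peak was found at 36 members (15.7%), at 6.38% of germline-bound regions and at 62.8% of all regions. Replicate 3 is the 1 ChIP library without an input sample in the labels used here.

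The first comparison asked whether EFL-1 occupied fewer members than the proteins on which the members were chosen. The rule asked for DPL-1 and LIN-35 peaks and not for EFL-1, so a lower EFL-1 share would not be independent of the choice. The EFL-1 libraries were somatic and intestinal and the others only intestinal, so factor and tissue are not separated. The mean share was 37.2% ± 37.9 (SD, n = 4 libraries) for EFL-1 in L1 and 58.5% ± 32.8 (SD, n = 4) for intestinal DPL-1 and LIN-35. The difference of -21.3 percentage points was smaller than the spread between libraries (exact permutation test, two-sided, p = 0.40, adjusted p over 5 tests = 0.50). The second set HPL-2, at 46.1% ± 32.3 (SD, n = 3), against the other intestinal factors, at 45.1% ± 33.08 (SD, n = 6). The difference of 1.02 points was not larger than the spread (exact permutation test, two-sided, p = 0.99, adjusted p = 0.99), and its sign turned in 8 of 23 fits that left out 1 library, over a range from -13.3 to 18.4. Neither result shows that the factors occupied the members alike. All 3 HPL-2 libraries and intestinal LIN-35 replicate 1 bear the same date in the labels, and on that date the share was 79.0% for LIN-35 and 11.4% to 75.1% for HPL-2.

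Members had peaks less often than germline-bound regions in each of the 11 L1 libraries outside the rule. The rule chose members for having no peak of EFL-1, DPL-1 or LIN-35 in 8 lists. A comparison in other lists of these factors is therefore not independent of the choice. Its p-value measures the spread between libraries over the same fixed sets of regions. In somatic EFL-1 the shares were 18.8% against 63.1% in replicate 1 and 93.4% against 98.8% in replicate 2. In intestinal EFL-1 they were 24.9% against 74.0% and 11.8% against 54.3%. Intestinal DPL-1 gave 91.7% against 99.4% and 43.2% against 86.5%, intestinal LIN-35 79.0% against 97.4% and 20.1% against 59.96%. The narrowest gap was that of HPL-2 replicate 3, with 51.97% against 55.99%, beside 75.1% against 91.3% in replicate 1 and 11.4% against 34.3% in replicate 2. The mean difference was -26.7 ± 17.4 percentage points (SD, n = 11) and was lower in members in 11 of 11 libraries (exact sign-flip permutation test, two-sided, p = 9.8e-04, the smallest it can give, adjusted p = 2.4e-03). Replicates of a strain share their transgene, and over 5 strains the difference of -27.9 points gave the smallest p that 5 values allow (exact, p = 0.0625, adjusted p = 0.16).

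The lower share in members went together with their weaker somatic peaks. Quartiles of the weakest somatic q-value were compared, leaving out the strongest because it held 1 member. Within them the mean difference was -13.9 points (exact sign-flip permutation test, p = 2.0e-03, adjusted p = 9.8e-03). Quartiles and classes both come from lists that the rule used, so this comparison is not independent of the choice either. Strength was not matched within a quartile, and the weakest ran from 4.43e-04 to 9.99e-03. In the weakest quartile, with 141 members and 395 germline-bound regions, the share was lower in members in 10 of 11 libraries, most of all in intestinal EFL-1 replicate 2 (17.02% against 42.03%). HPL-2 replicate 3 was the exception, with 53.9% of members and 45.1% of germline-bound regions.

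**Figure D2:**
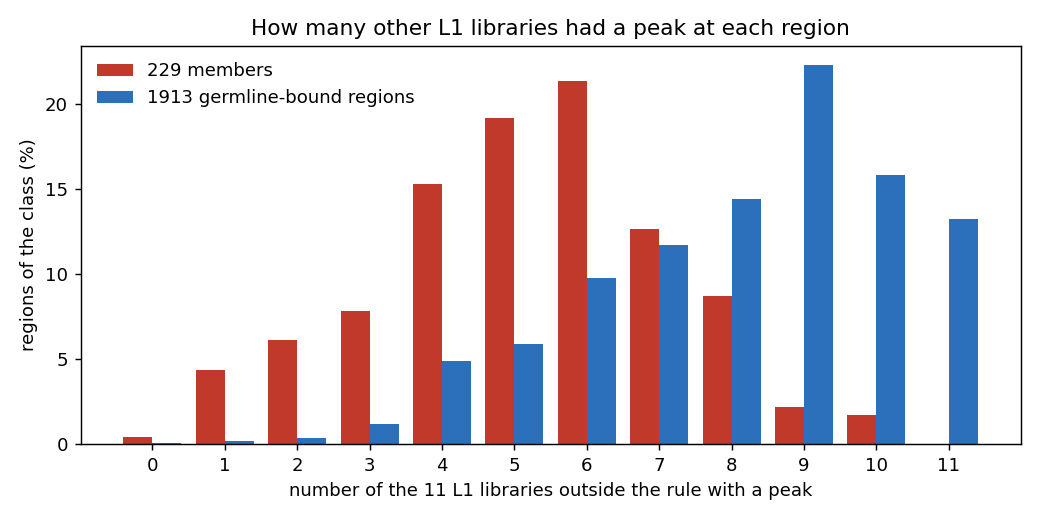
Number of the 11 L1 libraries outside the rule that had a peak at a region (x axis) and the share of the 229 members and of the 1913 germline-bound regions with that number (y axis, %). Members centre on 4 to 7 libraries and reach 10, while 254 germline-bound regions had a peak in all 11.

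Counted by region, members held peaks in 0 to 10 of these 11 libraries. The most frequent number was 6, at 49 members. A peak in all 11 was found at 0 members, at 254 germline-bound regions (13.3%) and at 1.04% of all regions. The 4 members with 10 peaks were mekk-3 (chrI:9938240-9938858) and regions at chrV:17537970-17538953, chrIV:15570307-15571225 and chrX:6748732-6750991. One member, chrI:11590740-11591243, had none. At 7 members (3.06%), 3 germline-bound regions (0.157%) and 48.7% of all regions no intestinal library had a peak.

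The q-values of the peaks that were called were also weaker in members, a comparison that is likewise not independent of the choice of regions. The median -log10 q was lower in members than in germline-bound regions in 11 of 11 libraries, with a mean difference of -10.96 (exact sign-flip permutation test, two-sided, p = 9.8e-04, the smallest it can give, adjusted p = 2.4e-03). In the EFL-1 and DPL-1 libraries the difference ran from -5.57 in intestinal EFL-1 replicate 3 to -29.6 in intestinal DPL-1 replicate 1 (12.3 against 41.9). In the intestinal LIN-35 libraries it was -28.9 and -1.98. In the HPL-2 libraries it was -2.68, -0.54 and -0.14, the last from medians of 4.07 against 4.22. Within quartiles of somatic strength the mean difference was -2.70 (adjusted p = 0.017 by the same exact test). Differences between the strains were not tested.

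Peak width did not separate the classes over all libraries. The median was lower in members in 7 of 11 libraries, with a mean difference of -21.8 bp (exact sign-flip permutation test, two-sided, p = 0.30, adjusted p = 0.50). Within quartiles of somatic strength the mean difference was 34.6 bp, wider in members (exact p = 0.059, adjusted p = 0.098). The direction differed between libraries. EFL-1 and DPL-1 peaks were narrower in members in all 6 libraries, with differences from -106 to -46 bp and medians of 298 against 404 bp in somatic EFL-1 replicate 1 and 384 against 467 bp in intestinal DPL-1 replicate 1. HPL-2 peaks were wider in members in all 3 libraries, with medians of 509.5 against 436 bp, 374 against 304 bp and 420 against 351 bp. LIN-35 peaks were narrower in members in replicate 1 (516 against 555 bp) and wider in replicate 2 (402.5 against 361 bp).

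**Figure D3:**
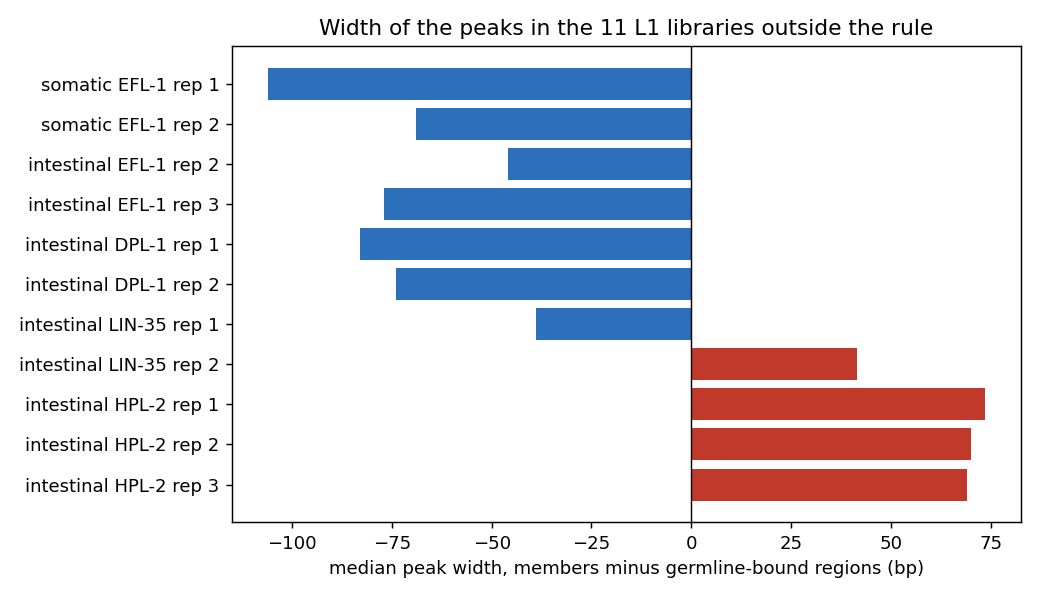
Median peak width in members minus that in germline-bound regions (x axis, bp) in each of the 11 L1 libraries outside the rule (y axis). The 3 HPL-2 bars and intestinal LIN-35 replicate 2 point right (wider in members), and the other 7 point left.

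As merged regions the members measured 221 to 6085 bp, with a median of 647 bp against 841 bp in germline-bound regions, and 22 (9.61%) reached 1500 bp against 18.2%. They were not isolated from germline peaks. The median distance to the nearest young adult peak was 2770 bp, 59 members (25.8%) lay within 1000 bp of one, and 20 (8.73%) lay more than 10000 bp away. The nearest was 43 bp away. Of the members, 25 had another member within 20000 bp, in 12 clusters. The largest held 3 members at chrI:15022907-15053044, near the right end of the chromosome.

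Members were unevenly spread over the chromosomes. Chromosome I held 58 of them (25.3%), chromosome II 19 (8.30%), III 42 (18.3%), IV 50 (21.8%), V 38 (16.6%) and X 22 (9.61%). Germline-bound regions had 15.5% on I and 18.03% on II, and all merged regions 11.5% and 15.8%. Members were 16.4% of the regions with all 4 somatic peaks on I and 5.22% of those on II, the highest and lowest share of any chromosome. At these regions young adult peaks were less frequent on chromosome I than on II in 8 of 8 libraries. The shares were 36.4% against 55.8% in germline DPL-1 replicate 1 and 11.3% against 36.3% in germline LIN-35 replicate 2. In germline EFL-1 replicate 3 they were 80.2% against 88.5%. Members lack these peaks by the rule, so these shares are not independent of the counts of members and add no separate evidence. Without both germline LIN-35 libraries, whose lists had a low share of peaks on I, 58 of 238 members (24.4%) were on I and 20 (8.40%) on II. The other 6 young adult lists had 8.21% to 13.7% of their peaks on I. The 4 somatic DPL-1 and LIN-35 lists had 10.9% to 19.98%. Whether the make-up of the lists goes with the spread of members was not tested.

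**Figure D4:**
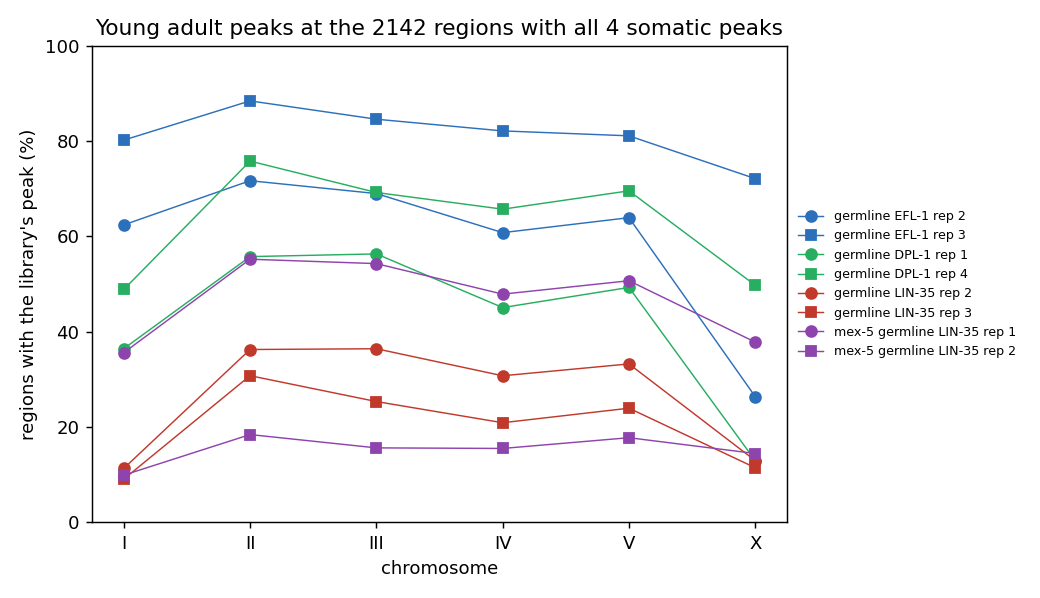
Share of the 2142 regions with all 4 somatic peaks (y axis, %) that had a peak in each young adult library, by chromosome (x axis). Each line is 1 library, in 4 colours for the 4 strains. Every line lies lower on chromosome I than on II, and X is low in most.

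Genes could be placed at members outside chromosome V, where the study's site tables are offset from the deposited peaks. Of the 191 members on the other chromosomes, 121 overlapped a site of those tables and 81 had a gene assigned, 48 of them with the tables' high confidence, which together named 92 genes. Of the 191, 6 were placed in an intron. Over all regions the tables named 3029 genes, of which the 92 make up 3.04%.

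**Figure D5:**
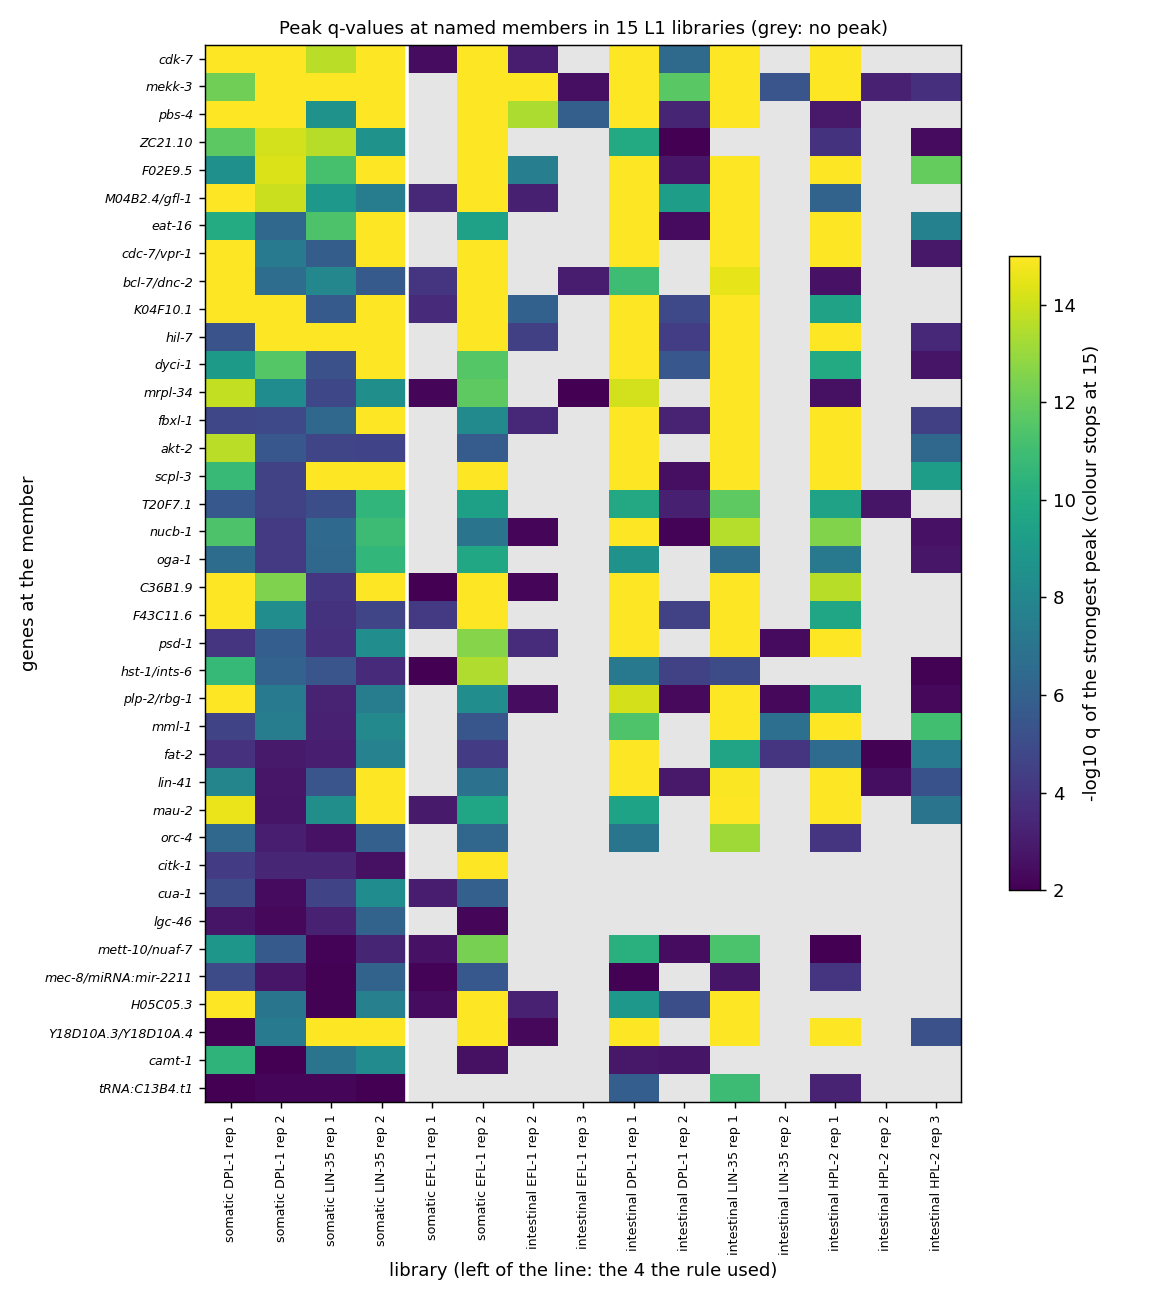
The -log10 q of the strongest peak in 15 L1 libraries (columns, the 4 that chose the members left of the line) at 38 members with named genes (rows, ordered by the weakest somatic q), on a colour scale that stops at 15, with grey where no peak was called. Intestinal DPL-1 and LIN-35 replicate 1 columns are filled in most rows and the intestinal EFL-1 columns in few.

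The members with the smallest weakest somatic q-value mostly had no gene assigned. The strongest lay near the right end of chromosome I (chrI:15035726-15036151), with 9.42e-100 and 7.55e-101 for somatic DPL-1 and 4.99e-39 and 6.82e-84 for somatic LIN-35. EFL-1 was called there in all 4 libraries, at 9.37e-31 and 1.51e-152 in the soma and 6.33e-122 and 1.71e-38 in the intestine, and HPL-2 in 0 of 3. Intestinal DPL-1 and LIN-35 were called there in replicate 2 and not in replicate 1, whose lists held peaks at 210 and 181 of the 229 members. The next, chrI:15052512-15053044, lay in the same cluster, with 2.70e-79 for somatic EFL-1 replicate 2. It had no HPL-2 peak and no intestinal DPL-1 or LIN-35 peak in either replicate, so the lack of calls there was not particular to HPL-2. Both lie beyond 15 Mb of chromosome I, and the rule gave 226 members without that stretch.

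Other strong members had HPL-2 beside the Rb/E2F factors. The region at chrV:20707026-20709620 had somatic q-values from 1.13e-45 to 2.26e-15 and peaks in all 3 HPL-2 libraries, at 5.06e-30, 9.88e-05 and 1.10e-08. The region at chrI:7489648-7493345, 3698 bp wide, had the smallest intestinal LIN-35 replicate 1 value named here, at 1.06e-222, with 1.04e-120 for HPL-2 replicate 1, against 7.36e-10 for its weakest somatic peak. At chrX:16796278-16797522 all 3 HPL-2 libraries had a peak (2.08e-23, 6.95e-04 and 1.17e-07) and no intestinal EFL-1 library did. At chrX:14809785-14811202 both intestinal EFL-1 libraries had one (4.95e-05 and 1.88e-03). The strongest members were thus unlike in HPL-2 and in intestinal EFL-1 calls. Those near the right end of chromosome I also lacked peaks in intestinal DPL-1 and LIN-35 replicate 1.

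Among genes of basic cell machinery, the strongest member with a gene lay at cdk-7, the kinase of the general transcription factor TFIIH (chrI:2290934-2291987). Its q-values were 2.26e-41 and 2.99e-18 for somatic DPL-1 and 2.15e-14 and 4.27e-39 for somatic LIN-35. Outside the rule, EFL-1 was called in both somatic replicates (3.66e-03 and 7.03e-37) and in intestinal replicate 2 (9.58e-04), and HPL-2 in replicate 1 alone (8.25e-32). The member at pbs-4, a proteasome beta subunit gene (chrI:3908046-3908922), had 8.25e-20 and 2.29e-26 for somatic DPL-1 and 2.10e-09 and 9.18e-17 for somatic LIN-35. It was among the 19 members with an EFL-1 peak in both intestinal replicates, at 3.88e-14 and 1.11e-06. The member at mrpl-34, a mitochondrial ribosomal protein gene, had EFL-1 peaks in both somatic replicates (6.93e-03 and 1.74e-12).

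Genes of signalling followed. The member at mekk-3, a MAP kinase kinase kinase gene (chrI:9938240-9938858), lacked only somatic EFL-1 replicate 1 among the 11 libraries. Its HPL-2 q-values were 4.10e-18, 6.12e-04 and 1.64e-04, and its intestinal EFL-1 q-values 4.33e-19 and 2.80e-03. At eat-16, which encodes a regulator of G protein signalling, the member was intronic. No intestinal EFL-1 peak was called there, while intestinal LIN-35 replicate 1 (1.80e-29) and HPL-2 replicates 1 and 3 (1.98e-18 and 1.94e-08) were. The member near akt-2, an Akt kinase gene of insulin signalling (chrX:14145609-14147331), had the same pattern, with 8.55e-26 for LIN-35 replicate 1 and 4.05e-18 and 4.13e-07 for HPL-2. These members were called in 5 to 10 of the 11 libraries.

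Chromatin and transcription genes included hil-7, a linker histone (chrIV:6645810-6647270), gfl-1, a YEATS-domain protein (chrIV:11520799-11521531), and scpl-3, which encodes a small CTD phosphatase-like protein. At hil-7 the somatic DPL-1 q-values were 4.91e-06 and 4.71e-16 and those of LIN-35 9.91e-16 and 8.39e-29, and HPL-2 reached 2.80e-33 in replicate 1. At gfl-1, which shares its member with M04B2.4, EFL-1 was called in both somatic replicates, at 3.41e-04 and 6.45e-39. The members at mau-2, a cohesin loader gene, and mml-1, a Mondo-family transcription factor gene, were among the 5 widest with a gene. The mml-1 member spanned 3461 bp, and its peak was 3167 bp wide in HPL-2 replicate 1, 2667 bp in LIN-35 replicate 1, and 602 to 690 bp in the 4 somatic lists.

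Genes of cytoskeletal motors and trafficking appeared beside dnc-2. The member near dyci-1, a dynein intermediate chain gene (chrIV:6785064-6786289), had 8.06e-10 and 2.78e-12 for somatic DPL-1 and 6.30e-06 and 8.76e-22 for somatic LIN-35. No intestinal EFL-1 library had a peak at dyci-1. Metabolic genes included oga-1, the O-GlcNAcase, psd-1, the phosphatidylserine decarboxylase, and fat-2, a fatty acid desaturase. At fat-2 the 4 somatic q-values were 1.41e-04, 1.13e-03, 8.13e-04 and 1.63e-08, and all 3 HPL-2 libraries had a peak (2.84e-07, 8.30e-03 and 4.08e-08) while no intestinal EFL-1 library did. Near lin-41, a heterochronic RNA-binding protein gene that also acts in oocytes, all 3 HPL-2 libraries had a peak too (4.41e-29, 3.33e-03 and 5.04e-06).

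Some members were called only in larvae that expressed the factor from its own promoter, which acts in many cell types and not only outside the intestine. Of the 7 members with no intestinal peak, 3 had a gene. Near citk-1, a citron kinase-like gene (chrII:13907363-13908008), somatic EFL-1 replicate 2 had a peak at 3.83e-17, while the 4 somatic DPL-1 and LIN-35 q-values lay between 4.93e-05 and 2.68e-03. Near cua-1, a copper-transporting ATPase gene (chrIII:13455694-13456087), both somatic EFL-1 replicates had a peak (9.47e-04 and 1.01e-06). In an intron of lgc-46, a ligand-gated ion channel gene, somatic EFL-1 replicate 2 had one at 6.87e-03, close to the limit of the lists.

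The gene lists gave few genes at members. The lists of splicing (25 genes next to a region), mRNA cap, decay and export (23), ribosomal proteins (55), translation factors (19), DNA replication and mitosis (60), DNA repair and apoptosis (12) and germ granules and small RNAs (22) had 0 genes at a member. The replication list does not hold orc-4, described above, or cdc-7, a replication kinase gene that the tables place with low confidence at chrI:5870087-5871005, so replication genes do lie at members. The small RNA list does not hold eri-12, placed with high confidence at chrIV:12156611-12157246, nor the splicing list mec-8. A 0 for a list thus does not show that no gene of its kind lies at a member. Next to a germline-bound region were 61.1% of all named genes, with a range over the lists from 16.7% (oocyte and maternal genes) to 96.4% (ribosomal proteins). Each of the other 7 lists had 1: pbs-4 of 35 proteasome and ubiquitin genes, ints-6 of 29 mitochondrial genes (listed as dic-1), dnc-2 of 31 traffic genes, cdk-7 of 32 transcription and chromatin genes, lin-41 of 30 oocyte and maternal genes, fat-2 of 11 intestinal genes and mec-8 of 7 neuron, muscle and epidermis genes. Read against the 3.04% of all named genes, 0 or 1 gene in lists of 7 to 60 placed genes is no result about a list.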

How the data were processed

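ChIP and input DNA of 48 samples (26 ChIP, 22 input) gave 23 deposited peak lists. Per the study's methods the authors called peaks with PeakSeq on signal normalized to input DNA. No input sample is labelled for intestinal HPL-2 replicate 3, and what its peaks were called against is not given in the labels. The deposited value of a peak is a q-value of up to 0.01 (build WS180). In 3 libraries 2 runs had been combined. No source used here names the aligner, and input files and reads were not used. The study describes its replicates as biological. Its list of replicates leaves out intestinal HPL-2 replicate 3, so for that library this is not stated. Several peaks of a library in a region count once, with the smallest q and the widest of its peaks.

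Regions were merged and counted with Python 3.11.15 (numpy 2.4.6, scipy 1.17.1) and checked against bedtools 2.31.1, which gave the same 24318 regions. Libraries, not regions, were the units of 5 exact permutation tests with Benjamini-Hochberg adjustment at 0.05, which measure the spread between libraries. The members are a complete list, so no counting interval is given. Gene names came from the study's site tables, 1 of them held in part, and from RefSeq symbols (WBcel235, names only), which matched 3315 of 3625 sequence names. On chromosome V 31.8% of the table's sites lay within 50 bp of a peak's centre, against 96.7% or more elsewhere, so no gene was placed there, mes-4 included. The tables' own classes and motif sites on chromosomes I and V were not used here. The planned promoter motif search was not run, since no sequence of this build was used. The members, gene lists and tests were chosen with earlier results of these data known. Named members are those with the smallest weakest somatic q (20 with a gene), up to 10 with no intestinal peak, the 5 widest, those in a gene list, those with a motif site and the 5 nearest the threshold. None had a peak in all 11 libraries, and none lay at ncbp-2, ymel-1 or ulp-2, which the rule also named. Regions given by position alone were chosen after their values were seen. Alternatives were a q below 0.001, overlaps of 10 and 100 bp, regions built from the 4 somatic lists, each library left out, a replicate block, ratios to all regions, strength quartiles, 5 strains and a stricter germline-bound class. The lists without chromosome I, without its last stretch beyond 15 Mb, and without both germline LIN-35 libraries are alternatives chosen after seeing the data. Peak lists simulated with known members were run through the merging, the rule and the tests. The recovered members and the share and width differences were checked against the planted values, and the other steps were not.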

Additional observations from a re-analysis of the deposited data

Results flagged for a closer look

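The difference in median peak width between members and germline-bound regions had opposite signs in every replicate of 2 strains, in 3 pairs of strains. It averaged 70.8 bp (wider in members) for intestinal HPL-2, against -87.5 bp for somatic EFL-1, -61.5 bp for intestinal EFL-1 and -78.5 bp for intestinal DPL-1. Those strains differ from HPL-2 by -158 bp (somatic EFL-1), -132 bp (intestinal EFL-1) and -149 bp (intestinal DPL-1). The differences between strains were not tested.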

How the results depend on the processing

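The lower share and the weaker q-values of members kept their direction and side of the threshold under all alternatives except the 5 strains, where 5 values cannot pass (-27.9 points and -11.9, exact p = 0.0625 each, adjusted p = 0.16). With 1 library left out they ranged from -33.8 to -23.6 points and from -12.2 to -9.10, and the width difference from -33.3 to -10.05 bp. The number of members ranged from 229 to 411 with 1 library left out and was 111 with q below 0.001 required for presence. Against regions germline-bound in at least 4 of 8 lists the -log10 q difference was -21.2. The width difference was -2.95 bp with peaks of q below 0.001, -8.05 bp with regions built from the 4 somatic lists and -34.4 bp against regions germline-bound in at least 4 lists. Within strength quartiles (those with at least 5 regions of each class) it turned to 34.6 bp, the -log10 q difference was -2.70 and the share difference -13.9 points. The EFL-1 difference ranged from -40.03 to -10.2 points and turned to 0.10 as a log2 ratio to all regions. The HPL-2 difference ranged from -13.3 to 18.4 points and turned to -4.12 with peaks of q below 0.001, to -0.90 with that limit for presence, and to -0.28 as a log2 ratio. With the replicate block the EFL-1 and HPL-2 differences stayed at -21.3 and 1.02 points (exact p = 0.44 and 1), and the labels do not tie a number to a shared batch. The causes were not tested. List lengths from 558 to 7556 peaks limit what the absence of a peak can show.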
